A study of Mus musculus with 8 samples.

Results

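The acute phase and serum amyloid genes described here were Saa1, Saa2, Saa3, Lcn2, Lbp, Hp, Lrg1 and Ptx3, 8 genes chosen by name. Of these, 7 had a row in at least 1 of the 8 count tables, out of 20275 genes listed in all, and Saa2 had none. The data came from SORT-seq, a plate-based single-cell method in which every well of a 384-well plate receives a sorted cell and mRNA is read from its 3′ end, each molecule being counted once by its molecular identifier (UMI). Each plate held the cells of 1 mouse colon tumour, grown after tumour organoids (cultured colon epithelium engineered to carry cancer mutations) were implanted orthotopically into the wall of the caecum. Cells had been sorted by 3 gates (Epcam-positive, CD45-positive, and negative for Epcam, CD45 and CD31).

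Mice of 2 groups were compared, with 4 plates each. FibΔZeb1 mice, labelled Fib-Del, carried a tamoxifen-inducible Cre transgene driven by a collagen promoter, crossed onto conditional (floxed) Zeb1 alleles, and FibCtrl mice were Cre-negative, Zeb1-proficient and, by the methods of the study, age-matched littermates of either sex. Both groups received a tamoxifen diet. The labels call the driver Col1a1Cre-ERT2, whereas the methods of the study name Col1a2-CreERT2, and which of these is right was not resolved here. Recombination by such a driver is limited to cells that use the collagen promoter, and which cells recombined cannot be read from these tables. Ages of the mice were not given in the sources used here. Plates 1 and 2 of both groups were run on one flow cell, and plates 3 and 4 on another.

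Acute phase proteins are secreted when interleukin-6 family cytokines, interleukin-1 and tumour necrosis factor reach their target cells, classically the hepatocyte, through STAT3, NF-kB and C/EBP transcription factors. Several are also made locally in inflamed tissue and tumours. Saa1 and Saa2 encode the circulating serum amyloid A proteins, which travel on high-density lipoprotein, and Saa3 encodes the form made outside the liver. Lbp (lipopolysaccharide-binding protein) hands bacterial lipopolysaccharide to CD14, and Ptx3 is a long pentraxin that binds microbes and matrix. Lcn2 (lipocalin-2) captures bacterial siderophores, Hp (haptoglobin) captures free haemoglobin, and both are stored in neutrophil granules. Lrg1 (leucine-rich alpha-2-glycoprotein 1) modifies TGF-beta signalling through endoglin.

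Of 3072 wells, 1831 passed quality control, between 98 and 294 per plate, and the plates held 981881 to 5905188 transcripts. The 384 well barcodes were shared by all plates by design. Cell classes were rebuilt from marker genes, since no gate per well entered here, so that "fibroblast wells" stands for fibroblast-like wells, and so on for each class. The members and the 3 pathway lists below were left out of the clustering, whereas genes that vary with them were not. Both fibroblast clusters, and the epithelial clusters led by Tgm3, Reg4 and Rspo3, had none of their class markers among their 10 leading genes. For the Tgm3 cluster (139 wells) the naming score was 0.794 for epithelial and 0.736 for glial markers, so its name is less sure. Classes differed in depth, with a median of 1889.2 transcripts in a neutrophil well, 8531.4 in a macrophage well, 19313.3 in a fibroblast well and 25849.9 in an epithelial well. Fibroblast wells were few on some plates: FibCtrl 1 to 4 had 43, 3, 9 and 25, and FibΔZeb1 1 to 4 had 24, 6, 17 and 15. The replicate is the plate, that is, the mouse. Mesothelial wells also carried fibroblast markers, whose summed level was 24670 to 51120 CPM (transcripts per 1000000 transcripts of the summed wells) there against 45060 to 92790 in fibroblast wells.

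Zeb1, the deleted gene, stood in fibroblast wells at 93.6, 0, 0 and 81.7 CPM on FibCtrl plates 1 to 4 and at 43.6, 44.0, 48.0 and 28.3 CPM on FibΔZeb1 plates 1 to 4. The FibCtrl plates at 0 had 3 and 9 fibroblast wells. A 3′ tag need not lie in the deleted part of the gene, so these values do not check the deletion.

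The 3 serum amyloid genes lie together on chromosome 7 of the GRCm38 build, Saa3 at 46711998 to 46715700 and Saa1 at 46740497 to 46742980 on the minus strand, and Saa2 at 46751790 to 46754313 on the plus strand. Their longest coding transcripts are 94.4% identical between Saa1 and Saa2 over 606 aligned bases, so that reads of one can be given to the other and the Saa1 values are uncertain in that respect. Lcn2 (32384633 to 32388252, minus strand) and Lbp (158306493 to 158332852, plus strand) lie on chromosome 2, Hp on chromosome 8 (109575128 to 109579172, minus strand), Lrg1 on chromosome 17 (56119678 to 56122001, minus strand) and Ptx3 on chromosome 3 (66219910 to 66225805, plus strand). All are annotated as protein-coding genes.

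Promoters are shown for the amyloid genes, Lcn2 and Ptx3 because the members are known targets of the same transcription factors while their cell types differed below. The 250 bases before each RefSeq transcription start of GRCm38.p6 are printed 5′ to 3′ on the gene's own strand, and capitals mark the matches found. The letters searched on both strands were TTGCNNAA for C/EBP, GGGNNNNTCC for NF-kB and TTCNNNGAA for STAT.
Saa1 promoter, chr7:46742981-46743230, minus strand: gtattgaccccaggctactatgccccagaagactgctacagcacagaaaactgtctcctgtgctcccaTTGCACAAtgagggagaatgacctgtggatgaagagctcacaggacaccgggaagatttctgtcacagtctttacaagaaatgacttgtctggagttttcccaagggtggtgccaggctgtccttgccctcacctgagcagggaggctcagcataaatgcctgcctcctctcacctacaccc
Saa2 promoter, chr7:46751583-46751832, plus strand: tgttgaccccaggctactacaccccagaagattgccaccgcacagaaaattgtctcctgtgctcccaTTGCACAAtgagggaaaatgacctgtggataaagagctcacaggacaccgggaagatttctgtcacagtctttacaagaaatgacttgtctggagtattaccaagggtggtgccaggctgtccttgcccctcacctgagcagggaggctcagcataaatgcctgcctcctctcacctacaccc
Saa3 promoter, chr7:46715677-46715926, minus strand: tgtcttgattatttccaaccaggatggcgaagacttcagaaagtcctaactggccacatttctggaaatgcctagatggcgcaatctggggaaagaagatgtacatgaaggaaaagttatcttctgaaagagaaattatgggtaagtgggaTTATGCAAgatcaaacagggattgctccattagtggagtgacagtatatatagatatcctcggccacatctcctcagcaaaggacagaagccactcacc
Lcn2 promoter, chr2:32387740-32387989, minus strand: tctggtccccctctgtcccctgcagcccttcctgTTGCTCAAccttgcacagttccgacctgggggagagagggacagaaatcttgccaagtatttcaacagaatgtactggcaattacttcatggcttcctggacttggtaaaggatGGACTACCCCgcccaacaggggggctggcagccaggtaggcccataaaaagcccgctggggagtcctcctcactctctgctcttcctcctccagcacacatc
Ptx3 promoter, chr3:66219637-66219886, plus strand: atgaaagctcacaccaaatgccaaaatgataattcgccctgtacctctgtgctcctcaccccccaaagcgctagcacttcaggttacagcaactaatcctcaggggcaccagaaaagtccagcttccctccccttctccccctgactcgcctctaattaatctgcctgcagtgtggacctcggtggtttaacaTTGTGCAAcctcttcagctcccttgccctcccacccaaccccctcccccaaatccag

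The C/EBP letters began 182, 183, 99, 216 and 57 bases before the start in Saa1, Saa2, Saa3, Lcn2 and Ptx3. The Lrg1 window, which is not printed, held no match to the C/EBP letters. These letters were present in 9.56% of the 32851 promoters searched. The NF-kB letters were found in Lcn2, beginning 102 bases before the start, and in Lrg1, beginning 34 bases before it, and in 16.5% of all promoters. The STAT letters, present in 7.02% of all promoters, were in none of the 6 member windows. Lbp and Hp had no entry. A match is a description of these letters and no evidence of binding.

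Levels of the members were first compared between cell classes, in CPM over the summed transcripts of a class on a plate, for plates with at least 5 wells of the class, which leaves out FibCtrl plate 1 for neutrophils (4 wells) and FibCtrl plate 2 for macrophages (1 well) and fibroblasts (3 wells). In such sums, fewer expressing cells and less RNA per cell cannot be told apart. By CPM, the members stood highest in different cells: Saa3 in macrophage and mesothelial wells, and Saa1 in epithelial wells of 1 plate. Lbp and Ptx3 stood highest in fibroblast wells, and Lcn2, Hp and Lrg1 in neutrophil wells. Of all transcripts in wells that passed quality control, neutrophil wells held 45.9% for Lcn2, 33.2% for Hp and 48.6% for Lrg1. Epithelial wells held 42.2% of Lcn2, and macrophage wells held 19.6% of Hp and 36.9% of Lrg1. Across the 7 contrasts between classes, 31 of 49 tests of a member passed (edgeR quasi-likelihood test with the plate as a block, Benjamini-Hochberg adjusted p under 0.05 over 9283 genes). Many other genes also differ between cell types, so each count is given with the share of all genes.

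Against macrophage wells, fibroblast wells were higher for 2 of 7 members (Lbp and Ptx3) and lower for 2 (Saa3 and Lrg1), where 20.1% of all genes were higher and 17.7% lower (37.8% in all). Against neutrophil wells, fibroblasts were higher for 2 (Lbp and Ptx3) and lower for 3 (Lcn2, Hp and Lrg1), against 29.4% and 18.0% of genes (47.3%). Against epithelial wells, fibroblasts were higher for 4 (Saa3, Lbp, Hp and Ptx3) and lower for 1 (Saa1), against 21.3% and 22.5% (43.8%). Lbp and Ptx3 were thus higher in fibroblasts in all 3 of these contrasts.

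Macrophage wells were higher than neutrophil wells for 1 member (Saa3) and lower for 3 (Lcn2, Hp and Lrg1), against 15.8% and 8.61% of genes (24.4%). They were higher than epithelial wells for 3 (Saa3, Hp and Lrg1) and lower for 2 (Saa1 and Lcn2), against 20.6% and 25.4% (46.1%). Neutrophil wells were higher than epithelial wells for 5 (Saa3, Lcn2, Hp, Lrg1 and Ptx3) and lower for 1 (Saa1), against 18.8% and 34.6% (53.4%). Ptx3 in neutrophil wells was 8 transcripts, 6 of them on FibCtrl plate 4. It was higher than in epithelial wells on 3 of 7 plates, lower on 1 and equal on 3. Neutrophil wells of FibCtrl plate 4 held fibroblast markers at 6837 CPM (10 genes summed), and their part in the Ptx3 value was not tested. Mesothelial wells were higher than fibroblast wells for 1 (Saa3) and lower for 1 (Ptx3), against 2.77% and 2.29% (5.06%).

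**Figure D1:**
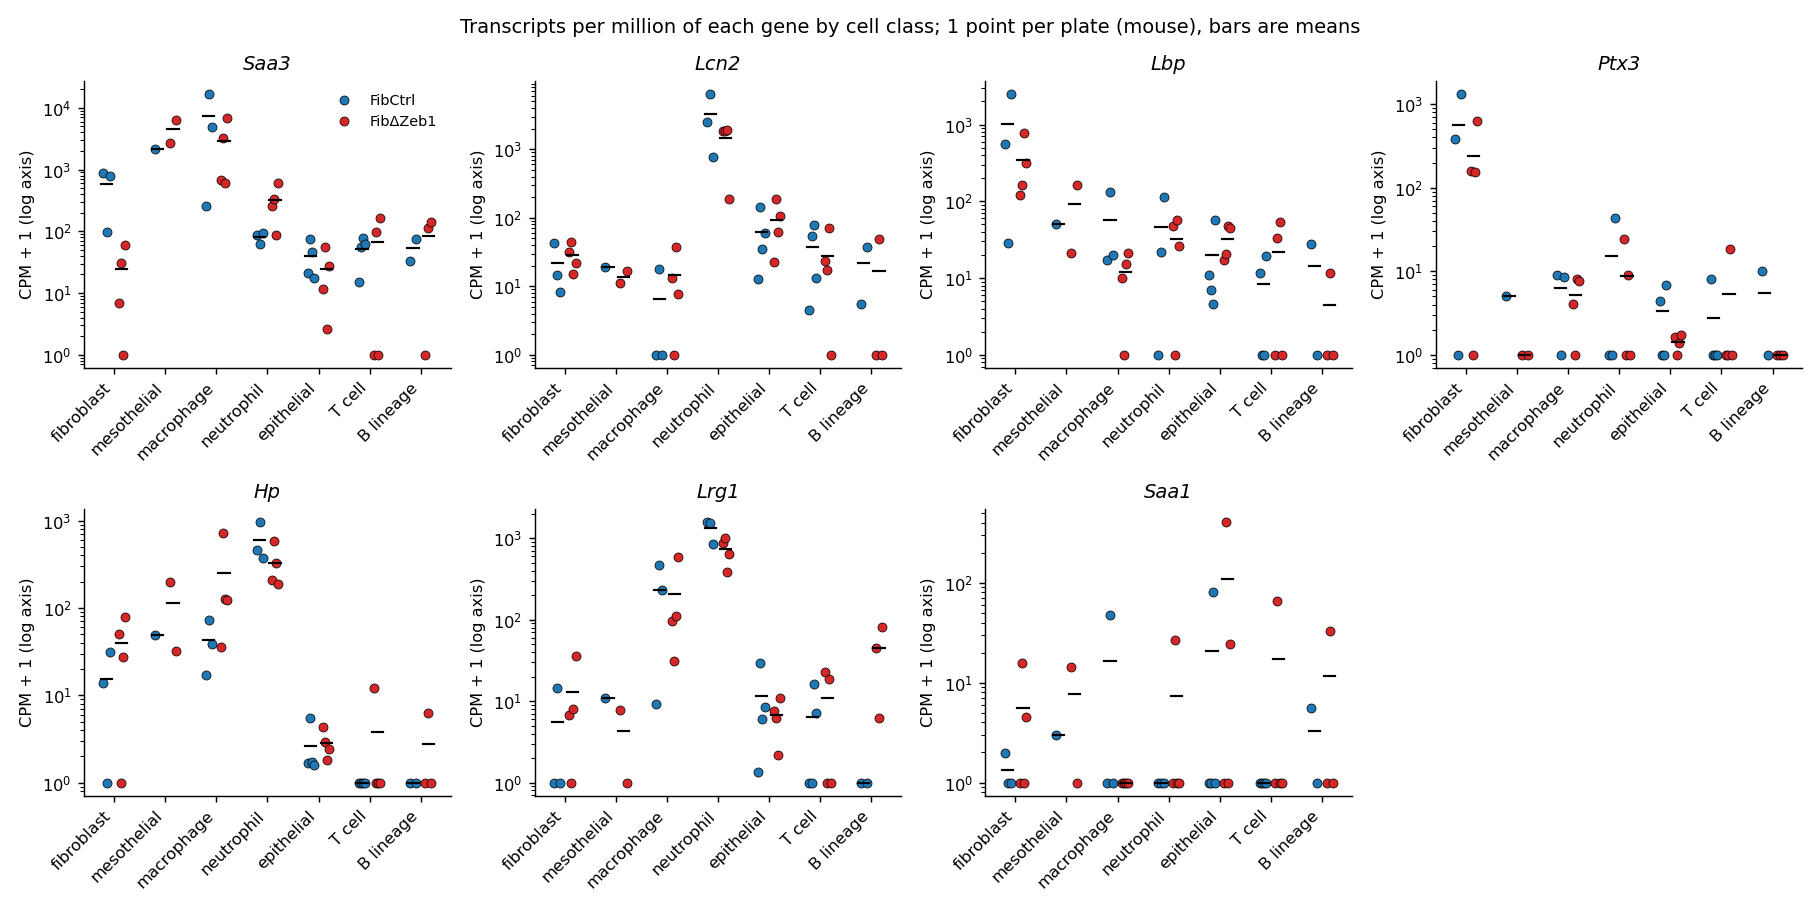
Level of 7 members (CPM + 1, log axis) in 7 cell classes, 1 point per plate with at least 5 wells of the class, blue for FibCtrl and red for FibΔZeb1, with a bar at each group's mean. Saa3 stands highest in macrophage and mesothelial wells, Lbp and Ptx3 in fibroblast wells, and Lcn2, Hp and Lrg1 in neutrophil wells, and points on the lowest line are plates at 0.

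Saa3, the local serum amyloid A, varied widely between plates. In macrophage wells it averaged 4752 ± 5823 CPM (SD, n = 7 plates), with 260.1, 16690 and 4875 CPM on FibCtrl plates 1, 3 and 4 and 682, 3240, 604 and 6917 CPM on FibΔZeb1 plates 1 to 4. In mesothelial wells, the lining cells of the serosa, it stood at 2188 CPM on FibCtrl plate 3 and at 2683 and 6382 CPM on FibΔZeb1 plates 2 and 4. These ranges overlapped, and macrophage and mesothelial wells could not be ordered for Saa3.

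Single wells carried much of several of these values. Without the highest well of each plate, Saa3 in macrophage wells was 148 CPM on FibCtrl plate 1, 1715 on FibCtrl plate 4, and 28.4, 119, 397 and 3890 CPM on FibΔZeb1 plates 1 to 4. In mesothelial wells of FibΔZeb1 plate 2, 529 of 802 Saa3 transcripts were in 1 of 5 wells, and the plates 2 and 4 stood at 1015 and 3768 CPM without their highest wells. The mean over plates was then 3097 CPM for macrophage, 2237 CPM for mesothelial, 124 CPM for neutrophil and 51.6 CPM for fibroblast wells.

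The other classes held far less Saa3. Fibroblast wells averaged 266 ± 391 CPM (n = 7), neutrophil wells 216 ± 197 CPM (n = 7) and epithelial wells 31.3 ± 24.95 CPM (n = 8). T cells, at 58.4 ± 55.9 CPM (n = 8), and B lineage wells, at 71.4 ± 57.2 CPM (n = 5), served as the level of free transcripts, since lymphocytes are not known for it. By CPM, epithelial wells therefore lay no higher than lymphoid wells.

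Saa3 was higher in macrophage than in neutrophil wells by 4.13 on the log2 scale (SE 0.84, edgeR adjusted p = 0.000306), in 6 of 6 plates with both classes. Fibroblast minus macrophage was -4.33 (SE 0.86, edgeR adjusted p = 7.99e-05), lower in fibroblasts in 6 of 7 plates. Neutrophil wells exceeded epithelial wells by 3.31 (SE 0.84, edgeR adjusted p = 0.00125), in 7 of 7 plates. Fibroblast minus epithelial was 3.11 (SE 0.89, edgeR adjusted p = 0.00431), but in 4 of 7 plates only, and was lost without FibCtrl plate 4 (1.76, adjusted p = 0.143). Mesothelial wells exceeded fibroblast wells by 3.77 (SE 1.03, edgeR adjusted p = 0.0234), in 3 of 3 plates, but this call was lost without 1 of 4 single plates (FibCtrl plate 3 or FibΔZeb1 plate 1, 2 or 4), where the difference was 2.84 to 3.78 with adjusted p between 0.0562 and 0.229. The difference between fibroblast and neutrophil wells was -0.20 (SE 0.94, edgeR adjusted p = 0.882), so these neighbours in the order did not differ beyond their spread.

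Most of the Saa3 in macrophage wells came from a small subset. A cluster of 19 wells led by Alox15, a lipoxygenase of resident macrophages, together with Serpinb2, Prg4 and Selp, held 5942 Saa3 transcripts, or 33950 CPM over its wells. The larger cluster of 153 wells led by Mmp12, Lyz1 and the complement genes C1qa and C1qc held 1089, or 694 CPM. Of the 19 Alox15 wells, 14 were on FibCtrl plate 3, 3 on FibΔZeb1 plate 4 and 1 each on FibCtrl plate 4 and FibΔZeb1 plate 1, with 35870, 29080, 56910 and 18050 CPM of Saa3. Every plate that had such wells thus held Saa3 in them at a high level, whereas most of the wells belonged to 1 plate.

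The Alox15 cluster was named from 8 detected macrophage markers, none of which was among its 10 leading genes, so the name is less sure than for the larger cluster. Saa3 and Lrg1 were themselves among those 10 leading genes, although they had not entered the clustering. Mesothelial markers, summed over 9 genes, stood at 0 to 30.2 CPM in macrophage wells against 1270 to 1787 CPM in mesothelial wells. Without the Alox15 cluster, macrophage wells of FibCtrl plates 1, 3 and 4 held 260.1, 2132 and 1715 CPM of Saa3, and those of FibΔZeb1 plates 1 to 4 held 28.4, 3240, 604 and 427 CPM. Macrophage minus neutrophil was then 2.18 for Saa3 on the log2 scale (edgeR adjusted p = 0.0511), no longer past the threshold, and fibroblast minus macrophage was -2.41 for Saa3 with an adjusted p of 0.0172. The clusters came from the same wells, so their levels are given without a test.

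**Figure D2:**
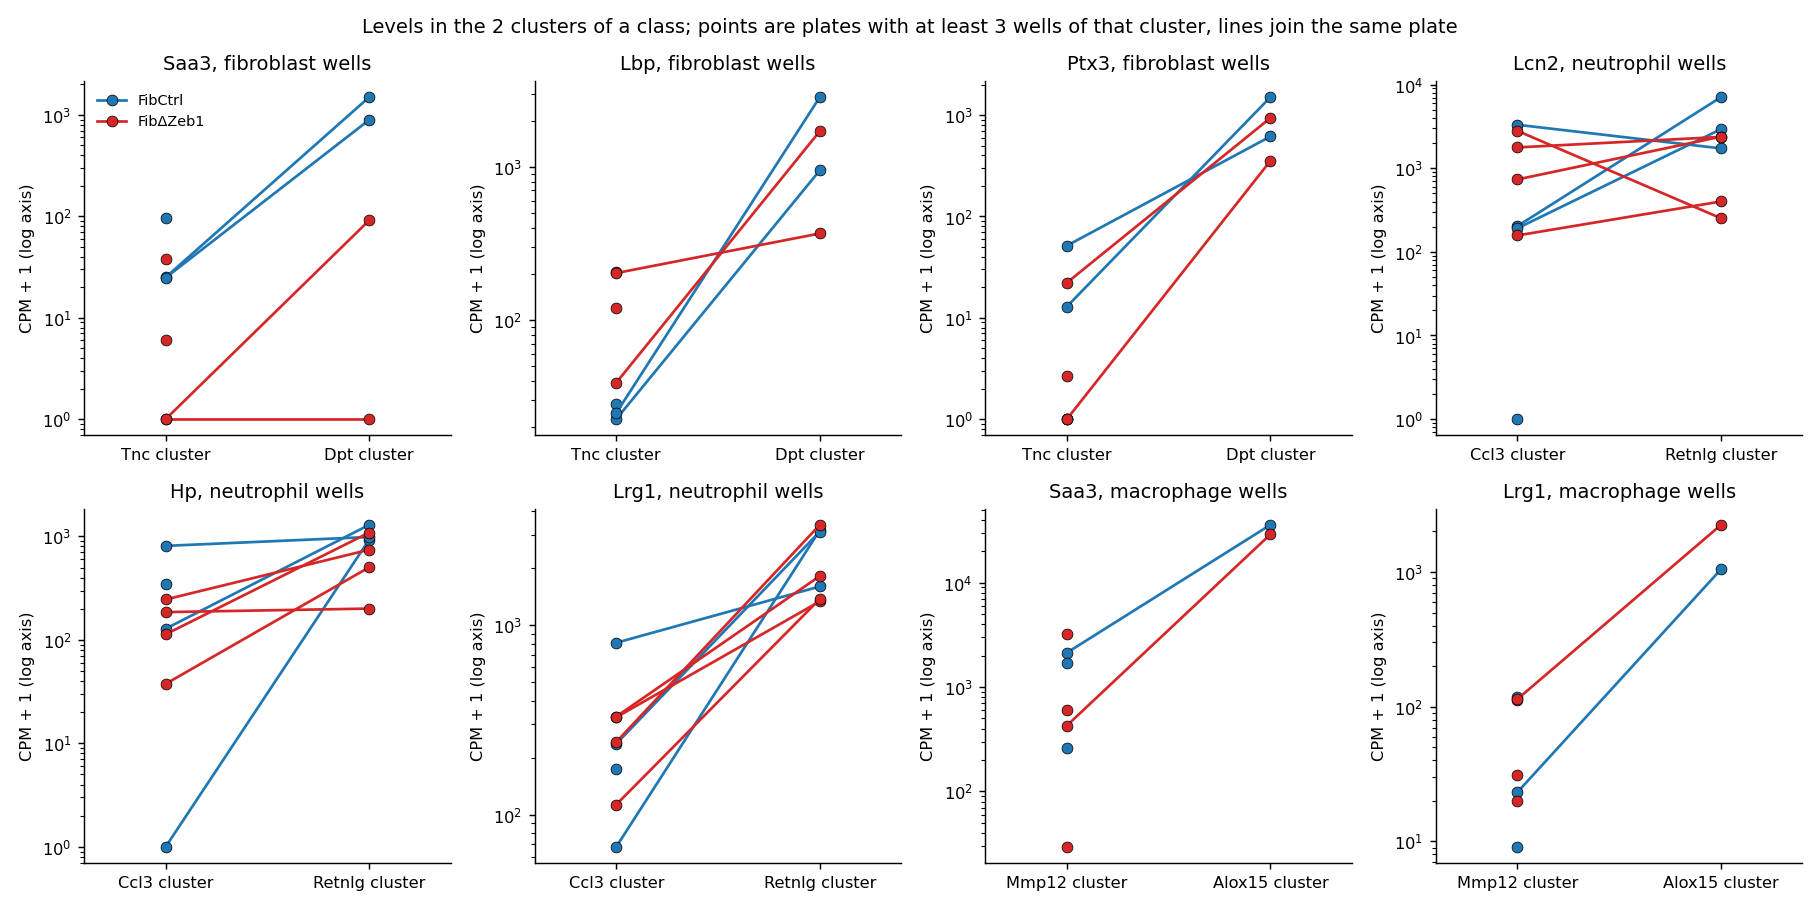
Levels (CPM + 1, log axis) in the paired clusters of the fibroblast, neutrophil and macrophage classes, 1 point per plate with at least 3 wells of that cluster, lines joining the same plate, blue for FibCtrl and red for FibΔZeb1. Lbp and Ptx3 rise toward the Dpt cluster on 4 of 4 joined plates and Hp and Lrg1 toward the Retnlg cluster on 7 of 7, whereas the Lcn2 lines cross.

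To compare how many wells held a member without an effect of depth, each well was thinned to 1000 transcripts. Saa3 was then found in 48.6% of mesothelial wells (exact 95% interval 31.9 to 65.6%) and 23.8% of macrophage wells (17.5 to 31.0%). In T cells it was found in 4.52% (1.97 to 8.71%) and in B lineage wells in 7.09% (3.45 to 12.7%), with unthinned medians of 3102.4 and 2746.4 transcripts per well. Neutrophil wells, at 10.3% (6.71 to 14.9%), overlapped the B lineage interval. Fibroblast wells, at 4.32% (1.60 to 9.16%), and epithelial wells, at 3.71% (2.09 to 6.05%), lay at the lymphoid level. Without thinning, the shares were 81.1% for mesothelial, 41.9% for macrophage, 18.8% for neutrophil and 29.6% for fibroblast wells. They were 43.1% for epithelial, 15.6% for T cell and 22.9% for B lineage wells. These intervals, and those of all counts here, cover counting error only.

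In fibroblasts, Saa3 was rare but intense. Among 142 fibroblast wells, 3 wells held 2003 of 2213 Saa3 transcripts, or 90.5%. They were single wells on FibCtrl plates 1, 2 and 4 with 838, 753 and 412 transcripts of Saa3, or 30520, 21260 and 18360 CPM of the well. No other fibroblast well held more than 61.

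Fibroblast markers were by far the most counted of the 5 marker lists in these 3 wells. In mesothelial wells too, fibroblast markers (24670 to 51120 CPM) exceeded mesothelial markers (1270 to 1787 CPM), so this order alone does not separate the classes. The 3 wells held 27465, 35431 and 22438 transcripts in all. Col1a1, the main fibrillar collagen chain, was counted 234, 558 and 439 times and Dcn (decorin) 959, 166 and 139 times. Mesothelial markers together gave 3, 1 and 3 transcripts, and macrophage markers 0, 0 and 2, against 1935, 2317 and 1987 for fibroblast markers. Neutrophil markers gave 0, 14 and 4 transcripts and epithelial markers 2, 15 and 3. A further 4 wells held 61, 56, 31 and 12 Saa3 transcripts. Of all 7 wells with at least 10, 6 were from FibCtrl plates and 1 from FibΔZeb1 plate 4, and all 7 were in the Dpt cluster described next.

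**Figure D3:**
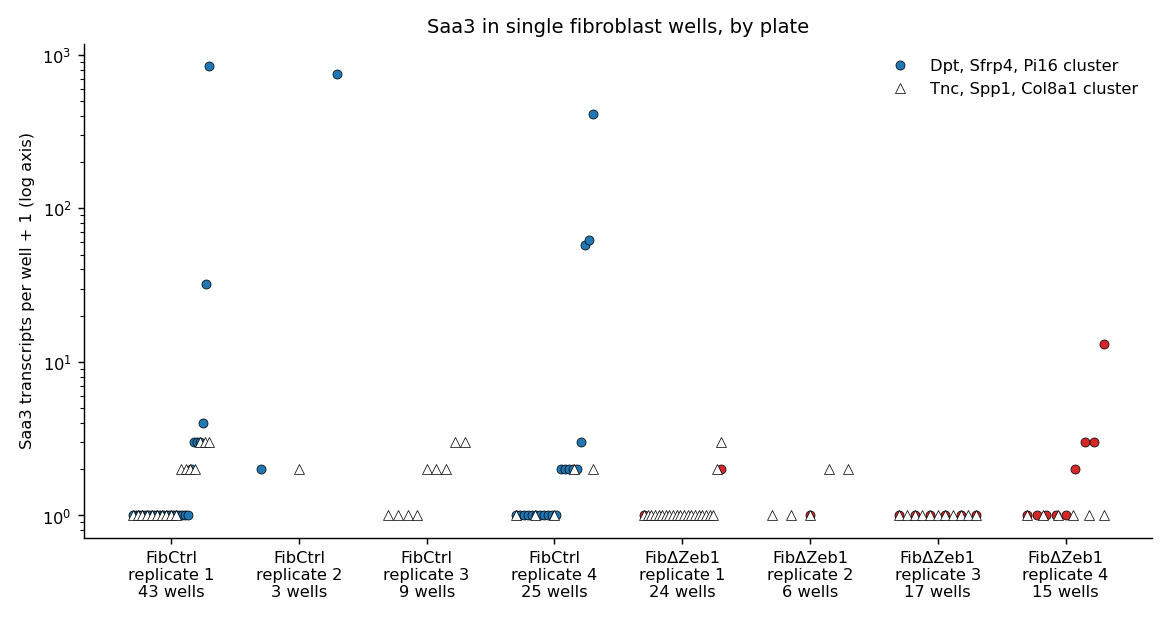
Saa3 transcripts + 1 (log axis) in each of the 142 fibroblast wells by plate, circles for the Dpt cluster (blue FibCtrl, red FibΔZeb1) and open triangles for the Tnc cluster. The 3 highest wells hold 838, 753 and 412 transcripts on FibCtrl plates 1, 2 and 4, and no FibΔZeb1 well holds more than 12.

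Lbp and Ptx3, the soluble recognition molecules, were counted mostly in fibroblast wells. Lbp stood in fibroblast wells at 563, 201, 27.3 and 2498 CPM on FibCtrl plates 1 to 4 and at 121, 161, 771 and 311 CPM on FibΔZeb1 plates 1 to 4, where FibCtrl plate 2 had 3 wells. Without their highest wells, FibΔZeb1 plates 2 and 3 stood at 60.7 and 466.1 CPM of Lbp. Fibroblast wells held 83.0% of the Lbp transcripts counted over the classes. Over all wells that passed quality control the share was 76.2%, with 8.7% in wells of no class. Mesothelial wells averaged 77.9 ± 75.8 CPM (n = 3), neutrophil wells 37.4 ± 40.0 (n = 7), macrophage wells 29.9 ± 44.96 (n = 7) and epithelial wells 25.2 ± 20.5 CPM (n = 8), and their ranges overlapped. T cells, as background, averaged 14.2 ± 19.4 CPM (n = 8).

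Fibroblast wells exceeded macrophage wells for Lbp by 3.84 on the log2 scale (SE 0.64, edgeR adjusted p = 5.67e-06), in 6 of 7 plates. They exceeded neutrophil wells by 3.87 (SE 0.71, edgeR adjusted p = 2.82e-05), in 6 of 6 plates, and epithelial wells by 4.45 (SE 0.54, edgeR adjusted p = 9.78e-09), in 7 of 7. Mesothelial minus fibroblast (-2.57, SE 0.80, edgeR adjusted p = 0.0510) missed the threshold.

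Most Ptx3 was counted in fibroblasts, which held 97.1% of its transcripts over the classes and 92.9% over all wells that passed quality control. It stood there at 381, 0, 0 and 1321 CPM on FibCtrl plates 1 to 4 and at 159, 0, 155 and 632 CPM on FibΔZeb1 plates 1 to 4. The 3 plates at 0 had 3, 9 and 6 fibroblast wells. Single wells weighed on the rest: 1 well held 438 of 906 Ptx3 transcripts on FibCtrl plate 4, 108 of 109 on FibΔZeb1 plate 1 and 51 of 87 on FibΔZeb1 plate 3, and without them these plates stood at 719, 1.54 and 67.7 CPM. The mean elsewhere was 10.6 CPM in neutrophil, 4.67 in macrophage, 1.37 in epithelial and 1.33 in mesothelial wells, beside 3.08 CPM in T cells and 1.81 CPM in B lineage wells.

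The excess of fibroblast wells for Ptx3 was 6.20 over macrophage (SE 0.50, edgeR adjusted p = 4.77e-12), 5.0 over neutrophil (SE 0.58, edgeR adjusted p = 1.71e-08) and 7.93 over epithelial wells (SE 0.44, edgeR adjusted p = 4.99e-16) on the log2 scale. It was present in 5 of 7, 4 of 6 and 5 of 7 plates, the others being at 0 in both classes. Mesothelial minus fibroblast was -5.04 (SE 1.01, edgeR adjusted p = 0.00147). Without FibΔZeb1 plate 4 that difference was -0.79 with an adjusted p of 0.796, and the call rested on this plate. After thinning, 25.2% of fibroblast wells held Lbp (18.2 to 33.2%) and 16.5% held Ptx3 (10.8 to 23.8%), against 2.82% and 0.565% of T cells. Lbp was also found in 16.2% of mesothelial wells (6.19 to 32.0%), an interval that overlaps that of fibroblasts, and without thinning in 70.3% of mesothelial and 57.7% of fibroblast wells.

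Within fibroblasts, both genes were high in one of 2 clusters. The cluster of 66 wells led by Dpt (dermatopontin), Sfrp4, Pi16 and Efemp1 held Lbp at 1542 CPM and Ptx3 at 906 CPM over its wells. The cluster of 76 wells led by the matrix genes Tnc, Spp1, Col8a1 and Col10a1 held 76.9 and 15.2 CPM. On the 4 plates with at least 3 wells of each, Lbp and Ptx3 were higher in the Dpt cluster on all 4, by means of 4.63 and 6.08 on the log2 scale. Lbp and Ptx3 were themselves among the 10 leading genes of the Dpt cluster although they had not entered the clustering.

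The share of fibroblast wells in the Dpt cluster differed between plates. It was 26 of 43, 2 of 3, 0 of 9 and 20 of 25 wells on FibCtrl plates 1 to 4, and 2 of 24, 1 of 6, 6 of 17 and 9 of 15 wells on FibΔZeb1 plates 1 to 4. Levels summed over all fibroblast wells carry this mix, and its part in the genotype differences of Lbp and Ptx3 was not tested.

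Lcn2, Hp and Lrg1 formed the neutrophil group. Lcn2, which starves bacteria of iron, stood in neutrophil wells at 2528, 6380 and 769 CPM on FibCtrl plates 2 to 4 and at 1858, 1866, 1903 and 186 CPM on FibΔZeb1 plates 1 to 4. The epithelial wells came next with 11.9, 141, 34.3 and 58.2 CPM on FibCtrl plates and 21.6, 185, 61.1 and 105 CPM on FibΔZeb1 plates. The lowest neutrophil plate (FibΔZeb1 plate 4) thus lay at the level of the highest epithelial plate, and the other neutrophil plates lay above it. On FibCtrl plate 3, 259 of 310 Lcn2 transcripts were in 1 neutrophil well, and on FibΔZeb1 plate 1, 58 of 80 were. Without the highest well, these plates stood at 1336 and 536 CPM and FibCtrl plate 4 at 495 CPM, and the mean over plates was 1100 CPM against 51.7 CPM in epithelial wells.

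Neutrophil minus epithelial was 4.76 for Lcn2 (SE 0.51, edgeR adjusted p = 6.53e-10), in 7 of 7 plates with both classes. Macrophage wells, at 10.2 ± 13.1 CPM, lay lower than epithelial wells, by -2.07 on the log2 scale (SE 0.66, edgeR adjusted p = 0.00979), in 7 of 7 plates. Fibroblast wells, at 24.7 ± 14.4 CPM, did not differ from epithelial wells beyond the spread (-0.85, SE 0.56, edgeR adjusted p = 0.231), and lay within the range of T cells at 31.9 ± 30.5 CPM. After thinning, 32.6% of neutrophil wells held Lcn2 (26.6 to 39.1%), 5.94% of epithelial wells (3.84 to 8.71%) and 2.82% of T cells (0.924 to 6.47%). Without thinning these shares were 40.0%, 41.9% and 7.82%.

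Hp, the haemoglobin scavenger, stood in neutrophil wells at 458, 968 and 373 CPM on FibCtrl plates 2 to 4 and at 208, 587, 327 and 186 CPM on FibΔZeb1 plates 1 to 4. Macrophage wells averaged 162 ± 253 CPM (n = 7), of which FibΔZeb1 plate 2 with 5 wells gave 726 CPM, 23 of its 24 transcripts being in 1 well, and the rest 16.2 to 126 CPM. Mesothelial wells averaged 91.4 ± 90.0 (n = 3), fibroblast wells 28.2 ± 28.1 (n = 7) and epithelial wells 1.74 ± 1.45 CPM (n = 8). In mesothelial wells a single well held 54.1% of all Hp transcripts.

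In epithelial wells Hp was counted 19 times over 406 wells. Neutrophil minus epithelial was 7.96 on the log2 scale (SE 0.52, edgeR adjusted p = 1.68e-15) and macrophage minus epithelial 6.06 (SE 0.54, edgeR adjusted p = 6.86e-12), both in 7 of 7 plates. Fibroblast minus epithelial was 4.96 (SE 0.55, edgeR adjusted p = 1.40e-09), in 5 of 7. Macrophage minus neutrophil was -1.90 (SE 0.44, edgeR adjusted p = 0.00155), lower in macrophages in 5 of 6 plates. Fibroblast minus macrophage, at -1.10 (SE 0.47, edgeR adjusted p = 0.0611), missed the threshold.

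Lrg1 was shared by neutrophils and macrophages. It stood in neutrophil wells at 1599, 1524 and 847 CPM on FibCtrl plates 2 to 4 and at 879, 1022, 390 and 634 CPM on FibΔZeb1 plates 1 to 4. In macrophage wells it stood at 8.12, 464 and 228 CPM on FibCtrl plates 1, 3 and 4 and at 94.9, 30.2, 111 and 594 CPM on FibΔZeb1 plates 1 to 4. Without the highest well, FibCtrl plate 4 and FibΔZeb1 plates 1 and 4 held 117, 19.0 and 273 CPM of Lrg1. The mean was at most 8.85 CPM in fibroblast, epithelial and mesothelial wells, beside 7.64 and 26.1 CPM in T cells and B lineage wells.

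Macrophage minus neutrophil was -1.79 for Lrg1 on the log2 scale (SE 0.38, edgeR adjusted p = 0.000504), lower in macrophages in 6 of 6 plates. Neutrophil and macrophage wells exceeded epithelial wells by 7.10 (SE 0.43, edgeR adjusted p = 1.35e-16) and 5.31 (SE 0.43, edgeR adjusted p = 3.98e-13), each in 7 of 7 plates. Thinned shares were 27.9% of neutrophil wells (22.2 to 34.1%), 14.02% of macrophage wells (9.10 to 20.3%) and 0.565% of T cells (0.0143 to 3.11%).

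Neutrophil wells fell into 2 clusters that carried these genes unequally. The 71 wells led by Retnlg, S100a8, S100a9 and the granule genes Camp and Ngp held Lrg1 at 2125, Hp at 924 and Lcn2 at 3163 CPM, the last of which was 1865 CPM without 1 well. The 184 wells led by the chemokine genes Ccl3 and Cxcl3 and by Il1r2 held 206, 134 and 1089 CPM. Hp and Lrg1 were higher in the Retnlg cluster on 7 of 7 plates, each by a mean of 3.17 on the log2 scale, and Lcn2 on 5 of 7. Saa3 went the other way in the pooled counts, with 114 against 231 CPM, but was higher in the Retnlg cluster on 2 plates.

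In macrophages, Lrg1 followed Saa3 into the Alox15 cluster, with 1503 CPM there against 57.4 CPM in the Mmp12 cluster. Over the 172 macrophage wells, the Spearman correlation of Saa3 and Lrg1 was 0.484, between -0.102 and 0.762 within 6 plates. The wells of 1 plate share a library and differ in depth, so this is a description.

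Saa1, a circulating form of serum amyloid A, was an epithelial gene of few mice. It stood at 0, 0, 79.1 and 0 CPM in the epithelial wells of FibCtrl plates 1 to 4 and at 0, 407, 0 and 23.4 CPM in those of FibΔZeb1 plates 1 to 4. The 108 transcripts of FibCtrl plate 3 came from 1 well, and the 628 of FibΔZeb1 plate 2 from 41 of 71 wells. In all, 740 of the 769 epithelial Saa1 transcripts lay in a cluster of 31 wells led by Clca6, Lypd8 and Guca2a, genes of the differentiated colon surface, and 27 of these wells were from FibΔZeb1 plate 2. Saa1 was itself among the 10 leading genes of this cluster, although it had not entered the clustering. The other 44 epithelial wells of FibΔZeb1 plate 2 held 28 Saa1 transcripts, or 22.45 CPM. On the same plate T cells held 4 transcripts in 4 wells (64.35 CPM) and B lineage wells 6 in 6 wells (31.7 CPM). Those were all of the T cell and 6 of the 7 B lineage transcripts of Saa1.

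Relative to epithelial wells, Saa1 stood at -3.02 in fibroblast (SE 0.85, edgeR adjusted p = 0.00477), -1.73 in macrophage (SE 0.70, edgeR adjusted p = 0.0447) and -4.04 in neutrophil wells (SE 1.18, edgeR adjusted p = 0.00575) on the log2 scale, each lower in 3 of 7 plates, the rest being at 0 in both or higher. Each of these calls was lost without FibΔZeb1 plate 2, with adjusted p of 0.226, 0.490 and 0.0753. The macrophage call was also lost without FibCtrl plate 4 or FibΔZeb1 plate 1, 3 or 4, with Saa1 at -1.69 to -1.51 (edgeR adjusted p = 0.053 to 0.124). After thinning, 4.21% of epithelial wells held Saa1 (2.47 to 6.65%), against 0 of 177 T cells (a count of 0 allows 1.69% by 3 counts and 2.06% by the exact interval) and 2.13% of B lineage wells. Without thinning the shares were 10.8% of epithelial wells, 2.23% of T cells and 4.86% of B lineage wells.

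The genes whose level followed each member most closely were sought over 50 sums of a class on a plate, by Pearson correlation of log2(CPM + 1) among 9964 genes. The sums of 1 plate share a mouse and a library, so the values are descriptive. Lcn2 was nearest to S100a8 (0.805), Retnlg and Gm5483, Hp to Fth1 (0.824), Ppp1r3d and Olr1, and Lrg1 to Fpr1 (0.867), Clec4d and C5ar1. Lbp was nearest to Sfrp4 (0.754), Efemp1 and Lrrn4cl, and Ptx3 to Sfrp4 (0.848), Cilp and Tmem100. Saa3 reached 0.633 with Dusp1, followed by Slpi and Serpinb2, and Saa1 was nearest to Dmbt1 (0.745), Reg4 and Ces2e. Between members, the highest values were 0.733 for Hp and Lrg1 and 0.693 for Lbp and Ptx3.

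Genes of the signals known to induce acute phase proteins were more often lower than higher in fibroblasts relative to myeloid cells. In a list of 26 genes of interleukin-6 family, interleukin-1 and NF-kB signalling, 5 were higher and 12 lower in fibroblast than in macrophage wells, with a median of -1.07 on the log2 scale against 0.03 over all genes, of which 20.1% were higher and 17.7% lower. Between fibroblast and neutrophil wells 5 were higher and 13 lower (median -1.29 against 0.38, with 29.4% and 18.0% of all genes), and between macrophage and epithelial wells 17 were higher and 1 lower (1.07 against -0.17, with 20.6% and 25.4% of all genes). Il1b, which encodes interleukin-1 beta, averaged 19740 ± 7770 CPM in neutrophil and 5541 ± 3108 CPM in macrophage wells (n = 7 each), against 35.9 ± 23.8 CPM in fibroblast wells, and its lowest macrophage plate (3014 CPM) exceeded the highest fibroblast plate (76.96 CPM). Osm, which encodes oncostatin M, averaged 989 ± 765 and 791 ± 456 CPM there and 1.39 ± 2.23 CPM in fibroblast wells.

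The oncostatin M receptor lay on the other side. Osmr averaged 317 ± 47.7 CPM in mesothelial (n = 3) and 152 ± 33.7 CPM in fibroblast wells (n = 7), against 10.5 ± 7.50 in epithelial and 1.52 ± 2.91 CPM in macrophage wells. Fibroblast minus macrophage was 6.04 for Osmr (SE 0.48, edgeR adjusted p = 4.46e-13) and fibroblast minus epithelial 4.19 (SE 0.28, edgeR adjusted p = 5.31e-15), and every fibroblast plate (105.6 to 196 CPM) exceeded every macrophage and epithelial plate (up to 24.98 CPM). Cebpb, one of the C/EBP factors whose letters were searched above, averaged 2740 ± 970 CPM in neutrophil, 1567 ± 307 in macrophage, 458 ± 323 in fibroblast and 103 ± 26.3 CPM in epithelial wells.

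Of 24 other acute phase proteins, 9 were expressed enough to be tested between classes. Against epithelial wells, 7 of the 9 were higher in fibroblasts and none lower (median 3.0 against -0.14 over all genes), 6 were higher in macrophages and 4 in neutrophils, where 21.3%, 20.6% and 18.8% of all genes were higher. Serpina3n, a protease inhibitor, averaged 1117 ± 387 CPM in fibroblast wells and exceeded macrophage wells by 6.03 (SE 0.47, edgeR adjusted p = 3.80e-13), with no overlap of plates. Complement C3 averaged 1416 ± 1456 CPM in fibroblast and 4196 ± 4715 CPM in mesothelial wells. Mesothelial wells exceeded fibroblast wells for C3, complement factor Cfb and Cd14, the receptor to which LBP delivers lipopolysaccharide, by 1.85, 2.15 and 2.68 (SE 0.51, 0.66 and 0.48, edgeR adjusted p = 0.0248, 0.0472 and 0.000326). Plates overlapped for C3 and Cfb and not for Cd14.

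Of 17 receptors and partners of the member proteins, 14 were tested, and all 14 were higher in macrophage than in epithelial wells (median 4.14 against -0.17 over all genes, of which 20.6% were higher). Against fibroblast wells, 8 were higher in macrophages and 3 lower, where 17.7% and 20.1% of all genes were. Fpr2, a formyl peptide receptor that binds serum amyloid A, averaged 1129 ± 391 CPM in neutrophil, 138 ± 107 in macrophage and 7.96 ± 10.1 CPM in fibroblast wells. Tnfaip6, whose product binds pentraxin 3, averaged 426 ± 348 CPM in fibroblast wells, the class that held Ptx3. Eng (endoglin), the partner of LRG1, averaged 73.1 ± 44.6 CPM in fibroblast and 0.667 ± 1.16 CPM in mesothelial wells.

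The genotype comparison asked whether deletion of Zeb1 in fibroblasts went with another level of the members in any class. Each class was fitted alone over plates with at least 10 wells, which left 2 FibCtrl and 3 FibΔZeb1 plates for fibroblasts, 3 and 3 for macrophages, 3 and 4 for neutrophils and 4 and 4 for epithelial wells. No member passed in any of the 16 tests of the main fit, which had an expression filter and no replicate block (edgeR quasi-likelihood test). Saa3 and Lbp passed in fibroblasts with the block. With no expression filter, Saa3, Lbp and Ptx3 passed in fibroblasts as lower in FibΔZeb1 (-5.68, -1.97 and -1.5 on the log2 scale). Lrg1 passed there as higher (6.18), and Saa3 passed in macrophages as lower (-1.51). Many more genes were called without the filter. In the main fit the background was as low, with 0.0122% of 8224 genes called in fibroblast, 0.0% of 10346 in epithelial, 0.0% of 4466 in macrophage and 0.0944% of 1059 in neutrophil wells. At an unadjusted p under 0.05 there were 499, 189, 164 and 40 genes.

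In fibroblasts, Saa3 stood at 885, 9449, 95.7 and 785 CPM on FibCtrl plates 1 to 4 and at 5.81, 29.3, 0 and 60.1 CPM on FibΔZeb1 plates 1 to 4. The groups did not overlap, whether all plates were taken or those with at least 10 wells. The nearest values, on FibCtrl plate 3 and FibΔZeb1 plate 4, were 7 and 17 transcripts. The counting interval on FibCtrl plate 3 was 38.5 to 197 CPM. Over all plates, 0.669% of genes lay lower and 2.21% higher in FibΔZeb1 without overlap, and over the plates with at least 10 wells 9.31% lay lower and 10.8% higher. No other tested member was without overlap in the 4 classes. In these, genes without overlap that were lower and higher made up 0.628% and 0.783% in epithelial wells, 4.14% and 4.7% in macrophage wells (0.336% and 1.9% over all plates) and 3.12% and 1.89% in neutrophil wells (1.13% and 1.04% over all plates). For Saa3 in fibroblasts, the fitted difference of -5.63 on the log2 scale (SE 1.05, unadjusted p = 0.000696, edgeR adjusted p = 0.222) did not pass. With the replicate number as a block, Saa3 differed by -5.17 (SE 0.67, edgeR adjusted p = 0.00501) and passed. Deviations of same-numbered fibroblast plates correlated at 0.297 and 0.175, and with 2 such pairs the numbers were not taken to pair the plates.

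The FibCtrl values of Saa3 rested largely on the 3 intense wells. Without the highest well of each plate, Saa3 levels were 52.3, 44.97, 81.2 and 191 CPM on FibCtrl plates 1 to 4. They were 2.95, 15.5, 0 and 18.4 CPM on FibΔZeb1 plates 1 to 4, and the groups still did not overlap. These levels were few counts, namely 51, 2, 5 and 127 transcripts in FibCtrl and 2, 1, 0 and 5 in FibΔZeb1. FibCtrl plates 1 to 3 lay near the means of T cell (58.4 CPM) and B lineage wells (71.4 CPM). Without the highest wells the difference was -4.59 with an edgeR adjusted p of 0.250. Within the Dpt cluster alone it was -4.82 with an edgeR adjusted p of 0.265. Both alternatives were added after the values were seen. Within the first flow cell the 2 usable plates stood at 885 and 5.81 CPM, and within the second FibCtrl stood at 785 and FibΔZeb1 at a mean of 30.1 CPM. Summed mesothelial markers (9 genes) in fibroblast wells were 102 to 139 CPM on FibCtrl and 140 to 340 CPM on FibΔZeb1 plates, higher in FibΔZeb1 where Saa3 was lower, and summed macrophage markers (11 genes) overlapped at 93.7 to 150 and 47.9 to 264 CPM. Their part in the Saa3 values was not tested.

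Lbp and Ptx3 had negative differences in FibΔZeb1 fibroblasts that did not pass in the main fit. Both passed with no expression filter, and Lbp but not Ptx3 with the replicate block. Lbp differed by -1.95 (SE 0.79, edgeR adjusted p = 0.800), and by -2.65 (SE 0.36, edgeR adjusted p = 0.00645) with the replicate block, and Ptx3 by -1.46 (SE 0.72, edgeR adjusted p = 0.856), and both groups of plates overlapped. Hp differed by 1.19 (SE 0.55, edgeR adjusted p = 0.822) and Lcn2 by -0.22 (SE 0.69, edgeR adjusted p = 0.9901). With the spread of these plates, an interval of 2 SE on either side still holds changes of over 1 log2 unit for each of these genes.

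**Figure D4:**
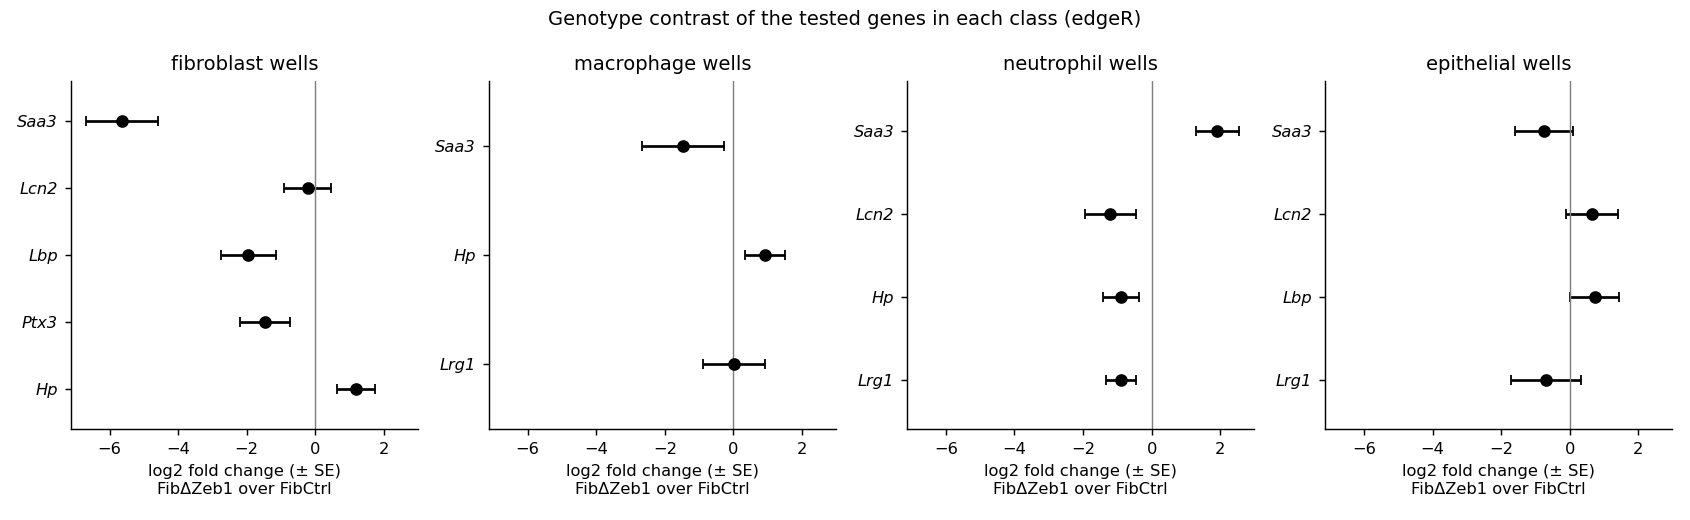
Log2 fold change of each tested member, FibΔZeb1 over FibCtrl, in 4 cell classes (edgeR), with bars of 1 SE on either side and a line at 0. Saa3 lies at -5.63 in fibroblast and at 1.91 in neutrophil wells, and no value passed the adjusted threshold in this main fit.

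In the main fit the other classes showed no member past the threshold. In macrophage wells Saa3 differed by -1.47 (SE 1.19, edgeR adjusted p = 0.9996), and by 0.12 without FibCtrl plate 3, which held most Alox15 wells. Hp and Lrg1 in macrophages differed by 0.92 and 0.02 (SE 0.59 and 0.91, edgeR adjusted p = 0.9996 each). In neutrophil wells Saa3 stood at 84.7, 61.7 and 93.1 CPM on FibCtrl plates 2 to 4 and at 254, 332, 87.6 and 597 CPM on FibΔZeb1 plates 1 to 4, with overlap through plate 3. Saa3 there differed by 1.91 (SE 0.63, unadjusted p = 0.00945, edgeR adjusted p = 0.968), the opposite direction to fibroblasts, and these differences were not tested against each other. Lcn2, Hp and Lrg1 in neutrophils differed by -1.20, -0.89 and -0.89 (SE 0.75, 0.53 and 0.45, edgeR adjusted p = 0.968 each).

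In epithelial wells, the 4 members tested (Saa3, Lcn2, Lbp and Lrg1) differed by -0.74, 0.64, 0.72 and -0.70 (SE 0.85, 0.76, 0.72 and 1.02, edgeR adjusted p = 1.0 each). In the 3 pathway lists no gene passed by genotype in any of the 4 classes. For the 24 inducing genes tested in fibroblasts the median difference was -0.28 and for the 9 other acute phase genes -0.60, against 0.02 over all genes.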

How the data were processed

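Reads had been aligned by the authors with BWA to the GRCm38 transcriptome, and Cell Ranger 2.1.1 is also named in the submitters' processing notes. The values deposited by the authors were expected counts, namely UMI counts per gene and well corrected for UMI collisions, of which 87.1% were whole, and were not scaled to depth. Plates held 981881 to 5905188 transcripts. Whether counting used the strand is not given in the sources used here.

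Members and gene lists were chosen with earlier results of these data known. Totals exclude the 89 spike-in and 37 mitochondrial rows. The labels mention empty control wells, whose positions were not used here. Wells with at least 500 transcripts and a mitochondrial share within 3 median absolute deviations of the plate median were clustered (leidenalg 0.10.2, 2000 variable genes, 20 components), and 15 of 17 clusters were named from markers. Doublets were not called, since wells were sorted singly. Fibroblast wells with at least 2 transcripts of Ptprc or Epcam were removed, leaving 142 of 177. A mouse (plate) was the replicate. Counts were summed per class and plate, rounded and tested with edgeR 4.0.16 (TMM, filterByExpr, quasi-likelihood, Benjamini-Hochberg). The main genotype fit had no block, and the class fit had the plate as block. SE was the log2 difference over the root of F. Scripts were tested on simulated data. Differences are FibΔZeb1 minus FibCtrl. Genes named were the 8 members, for each the 3 genes nearest in pattern, and at most 6 called genes of the 3 lists per comparison, from which those printed were picked after their values were seen, as were the cluster-leading genes. Alternatives were DESeq2 1.42.0, other scalings, no filter, blocks, other well minimums, marker-sum classes and plates left out. Fits without the Alox15 or Clca6 cluster, without the highest wells and in the Dpt cluster alone were added after the data were seen. Some items are not reported here.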

Additional observations from a re-analysis of the deposited data

Results flagged for a closer look

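Of 34 groups of 4 plates, 8 held a value of a member that stood apart from the other 3 plates by Dixon's criterion, a criterion that chance meets in about 1 of 20 groups of continuous values. In 2 of the 8 the other plates were at 0, where any value above 0 meets it, so that rate does not apply to these counts. In epithelial wells these were Saa1 at 79.1 CPM on FibCtrl plate 3 (0 on the others) and at 407 CPM on FibΔZeb1 plate 2 (0 to 23.4), Lbp at 55.9 CPM on FibCtrl plate 4 (3.65 to 9.87) and Hp at 4.52 CPM on FibCtrl plate 2, which was 3 transcripts (0.582 to 0.730 on the others, from 1 or 2 transcripts each). In macrophage wells they were Hp at 726 CPM on FibΔZeb1 plate 2 (35.0 to 126), where the class had 5 wells and 1 well held 23 of 24 transcripts, and Lrg1 at 594 CPM on FibΔZeb1 plate 4 (30.2 to 111), a plate with 3 wells of the Alox15 cluster. In neutrophil wells they were Lcn2 at 186 CPM on FibΔZeb1 plate 4 (1858 to 1903) and Saa1 at 25.5 CPM on FibΔZeb1 plate 2, which was 1 transcript (0 on the others).

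The 427 wells that entered no class also held members above the higher of the pooled T cell and B lineage levels. Lbp stood there at 152 CPM (against 15.7), Hp at 40.7 (1.96), Lcn2 at 38.2 (21.6) and Ptx3 at 34.6 CPM (3.92). These wells include the fibroblast wells removed for Ptprc or Epcam transcripts, and 258 of them form a cluster led by Svs5, Svs2 and Xirp2.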

How the results depend on the processing

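Between classes, all 31 calls of a member kept their direction under the alternatives run, save Saa1 for neutrophil minus epithelial, which was 0.54 with DESeq2, and 29 of the alternative values fell below the threshold. Saa1 for fibroblast minus epithelial was also lost with DESeq2 (-1.42), 10 wells per plate (-0.92) and marker sums (-0.84), for macrophage minus epithelial with DESeq2 (-0.58), no plate block (-2.88) and 10 wells (-0.89), and for neutrophil minus epithelial with no plate block (-4.74). Ptx3 for mesothelial minus fibroblast was lost with 10 wells (-2.73). Saa3 for fibroblast minus epithelial (3.11, higher in 4 of 7 plates) was lost without FibCtrl plate 4 (1.76) and without the highest Saa3 wells (1.27). Ptx3 for neutrophil minus epithelial (2.93) was lost without FibCtrl plate 4 (2.71) and without the plate block (3.20). Saa3 for mesothelial minus fibroblast was 1.44 with at least 10 wells per plate and 0.45 with classes from marker sums, under which Lcn2 for macrophage minus epithelial (-1.54) and Saa3 for neutrophil minus epithelial (2.21) were also lost. Scaling by library totals moved the median of all genes by up to -0.35 (fibroblast minus epithelial), with the same member directions. The 470 genes called for mesothelial minus fibroblast became 130 with 10 wells per plate, 908 with marker sums and 265 to 459 without single plates.

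By genotype, genes called in fibroblasts (1 in the main analysis, higher in FibΔZeb1) numbered 34 with DESeq2, 339 with no filter (4 members: Saa3, Lbp, Ptx3 and Lrg1), 25 with the flow cell as a covariate, 0 in the Dpt cluster alone and 0 to 4 without single plates. In epithelial wells DESeq2 called 1 gene. In macrophage wells DESeq2 called 1, no filter 39 (1 member, Saa3), and leaving out single plates 0 to 1. In neutrophil wells no filter called 18, the flow cell covariate 2, and leaving out single plates 0 to 6. Saa3 in fibroblasts ranged from -8.03 to -4.31 with adjusted p from 6.52e-39 to 0.911 over 19 settings.

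By genotype, signs turned for uncalled values only. Lcn2 in fibroblasts became 0.11 with the replicate block, 0.17 with the flow cell, 0.15 with Ptprc or Epcam wells kept, 0.98 without the highest Saa3 wells, and 1.55 or 0.04 without FibCtrl plate 1 or FibΔZeb1 plate 3 (-0.95 to 1.55 without single plates). Lrg1 in macrophages (0.02) became -0.01 with no filter, -0.18 with 5 wells, and -0.48, -0.06 and -1.27 without FibCtrl plate 1, FibCtrl plate 4 and FibΔZeb1 plate 4 (up to 0.94). Lrg1 in epithelial wells became 0.49 without FibCtrl plate 2 (-1.24 to 0.49), and Saa3 in macrophages 0.12 without FibCtrl plate 3 (-3.54 to 0.12). The causes were not tested.

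Deviations of same-numbered plates correlated at 0.536, 0.261, 0.139 and 0.104 in epithelial wells, where the numbers pair the plates by the rule used, at 0.297 and 0.175 in fibroblasts, -0.0031 to 0.0862 in macrophages and -0.242 to 0.501 in neutrophils. With the replicate number as a block, 2 members (Saa3 at -5.17 and Lbp at -2.65, edgeR adjusted p = 0.00501 and 0.00645) and 77 genes passed in fibroblasts, from 2 pairs, and 6 genes in neutrophils. The block changed no other member call. Fibroblast values rest on 5 plates with 15 to 43 wells, and neutrophil wells are the shallowest.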
